A study of Mus musculus with 6 samples.

Results

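Neutrophils that held no transcript of Ccl3 were described in wounds of mice treated with dendritic cells (DCs) on a hydrogel. The cells came from 3 droplet libraries of digested skin wounds. A cell was kept when its barcode held at least 300 genes, under 100000 UMIs (unique molecular identifiers, each counted as 1 captured RNA molecule) and under 10% mitochondrial UMIs. A kept cell was counted as a neutrophil when S100a8 and S100a9 made up at least 1% of its UMIs and when it held UMIs of at least 2 of the 7 genes Csf3r, Retnlg, Cxcr2, G0s2, Hdc, Il1r2 and Mmp9. Of the 11032 kept wound cells 4484 met these criteria, and 644 of them had 0 Ccl3 UMIs. These 644 cells, 5.84% of the kept wound cells, were thus chosen by measured values, and nothing about Ccl3 or the 9 marker genes is tested here.

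All 3 groups were C57BL/6J wild-type mice, 6 weeks old and of both sexes per the study's methods, with splinted full-thickness wounds of 6 mm. The 4 Y-linked genes Ddx3y, Eif2s3y, Uty and Kdm5d held 1, 3 and 2 UMIs over all barcodes of the control DC, Ndrg2-KO DC and blank hydrogel libraries. One group received hydrogels with DCs grown from mouse bone marrow in which Ndrg2 had been knocked out by nucleofection of Cas9 ribonucleoprotein (Ndrg2-KO DC). The comparison group received hydrogels with control DCs, which the labels call untreated and the methods describe as nucleofected with 3 non-targeting guides. The last group received blank hydrogels without cells. The knockout was in the transplanted DCs and not in the mice. Ndrg2 had 0, 0 and 0 UMIs in the neutrophils described here, which are no check of the knockout. The study's results section places the tissue at day 10 after wounding, with 5 mice per group. Each group is 1 library, and the labels do not say how many animals entered it. A condition without a replicate cannot be tested, so ratios carry exact 95% intervals in brackets, which cover counting error only and not the spread between animals. The design text of the series speaks of GFP+ cells of parabiosis wounds, whereas the labels of these libraries describe wound tissue taken up by enzymatic digestion and name no sort. The sequence eGFP held 0, 1 and 0 UMIs over all barcodes of the control DC, Ndrg2-KO DC and blank hydrogel libraries.

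Neutrophils are short-lived phagocytes that leave the bone marrow with prefilled granules and enter a wound early, drawn by chemokines that bind CXCR2. On activation through NF-kappaB they make few transcripts at high level, among them the chemokine genes Ccl3, Ccl4 and Cxcl2 and the cytokine genes Il1b and Tnf. CCL3 and CCL4 are chemokines of neighbouring genes and attract monocytes and further neutrophils. Transcripts such as Cxcr2 and Retnlg are known from neutrophils fresh from the blood, and they are lost as the cells age and become activated.

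The neutrophils without Ccl3 were cells of small RNA content. They held a median of 3411, 2637 and 3208 UMIs and 821, 733 and 850.5 genes per cell in the control DC, Ndrg2-KO DC and blank hydrogel libraries, the order in which triplets of values are given throughout. Neutrophils with at least 1 Ccl3 UMI had medians of 3505, 3182 and 3563 UMIs, so the cells without Ccl3 were shallower in all 3 libraries. Mitochondrial transcripts made up medians of 0.370, 0.447 and 0.416% and ribosomal protein transcripts medians of 1.82, 2.38 and 2.22% of their UMIs. Summed over the cells, the 3 libraries gave 342569, 1012705 and 751834 UMIs, and expression is given below as counts per 1000000 UMIs of these sums (CPM). The control DC sum was the smallest, and 3 UMIs in it make 8.76 CPM. Gm42418, a locus that overlaps ribosomal RNA, took 145153, 124579 and 130502 CPM of the sums. The automatic threshold of a doublet caller marked 0.873%, 0.0352% and 0% of the kept cells and so did not work on these libraries. Of the 644 cells, 16 lay in the highest 6% of doublet scores. The libraries shared 3, 5 and 5 barcodes pairwise, none of them a neutrophil without Ccl3.

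The cell type label fitted markers that took no part in the choice. Summed over 18 such neutrophil genes, among them Ly6g, Clec4d, Mxd1 and Slpi, the cells held 22431, 17973 and 19593 CPM, against 432, 1165 and 934 CPM in wound cells with under 1% S100a8 and S100a9. Clec4d, a C-type lectin receptor of myeloid cells, was at 3357, 3190.5 and 3126 CPM and was found in 92, 332 and 211 of the 93, 335 and 216 cells. None of the 18 genes was at 0 in any library. Genes of the primary granules, which neutrophils transcribe as progenitors in the marrow, were close to absent with 5.84, 11.8 and 1.33 CPM over 7 genes. All 7 marker genes of the rule were found together in 152 of the 644 cells, and at least 5 of the 7 in 494 cells (76.7%).

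Markers of other wound cells were low but not evenly spread over the libraries. The 6 fibroblast markers summed to 388, 351 and 322 CPM, against 51549.5, 28943 and 27125 CPM in the wound cells with low S100a8 and S100a9. The 9 macrophage markers summed to 295, 1573 and 1301 CPM, lowest in the control DC library, where 1 of the 9 was at 0. The 5 erythroid markers, mostly globin genes, summed to 12155, 25009 and 6906 CPM. Markers of dendritic cells, T and NK cells, mast cells, eosinophils, basophils, keratinocytes, endothelium and B cells each summed to at most 80.0 CPM in every library, with the 4 basophil markers at 0 throughout. A cell was marked as holding RNA of another type when it had UMIs of at least 2 of 8 macrophage genes, at least 10 UMIs of 4 MHC class II genes or at least 5% globin UMIs, a criterion set after these values were seen. It marked 4, 48 and 31 cells, or 4.30, 14.3 and 14.4% of the neutrophils without Ccl3. Without them the fibroblast markers, which took no part in the marking, were at 407, 383 and 344 CPM. The macrophage markers at 279.7, 416 and 401 CPM and the erythroid markers at 186, 477 and 291 CPM were lower by the way the cells were marked. Whether such a barcode held 2 cells or 1 neutrophil with free or ingested RNA was not tested.

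Cells at the edges of the rule were few. With S100a8 and S100a9 between 1% and 2% there were 5, 11 and 11 cells, with Ccl4 at 6457, 2340.0 and 2410.3 CPM. Just outside, between 0.5% and 1%, another 4, 8 and 5 cells held 55.0, 759 and 244 CPM. The latter cells were partly of another kind, since Col1a1, a collagen gene of fibroblasts, was at 55.0, 15487 and 9694 CPM there. With UMIs of exactly 2 of the 7 genes there were 3, 17 and 8 cells, and with exactly 1 of the 7, left out by the rule, 1, 10 and 3. More cells lay at the edge set by Ccl3, since 34, 180 and 113 neutrophils held exactly 1 Ccl3 UMI.

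Neutrophils without Ccl3 were a minor part of the wound neutrophils in every library. They made up 22.0% [18.1 to 26.2] of the neutrophils in the control DC library, 12.6% [11.4 to 14.0] in the Ndrg2-KO DC library and 15.3% [13.5 to 17.3] in the blank hydrogel library. Of all kept cells they were 4.77% [3.87 to 5.82], 5.90% [5.30 to 6.54] and 6.35% [5.55 to 7.22]. The order of the libraries was thus different on these denominators. Neutrophils as a whole made up 21.7%, 46.7% and 41.4% of the kept cells, lowest in the control DC library. The control DC library therefore had the smallest share of neutrophils and, within them, the largest share without Ccl3. How tissue digestion and cell loading moved these shares was not tested.

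**Figure D1:**
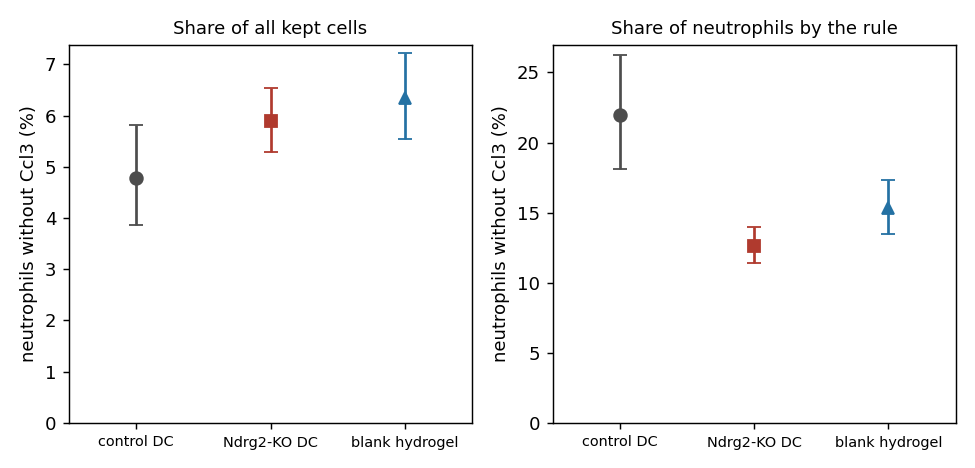
Share of neutrophils without Ccl3 in percent of all kept wound cells (left) and in percent of all neutrophils by the rule (right), for the 3 libraries, with bars as exact binomial 95% intervals. The intervals of the left panel overlap between all 3 libraries, whereas on the right the control DC library at 22.0% stands above the Ndrg2-KO DC library at 12.6% and the blank hydrogel library at 15.3%.

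The first comparison set neutrophils without Ccl3 beside neutrophils with Ccl3 of the same library. Since Ccl3 chose the cells, it is a description of what went along with its absence. The cells without Ccl3 were low in a group of inflammatory transcripts. These were the chemokines Ccl4, Cxcl2 and Cxcl1, the cytokines Tnf and Il1a, the receptor antagonist Il1rn and the adhesion molecule gene Icam1. The same cells were high in Lrg1 and Dusp6. Il1b, by contrast, was close to equal. Of 2408 genes with at least 50 UMIs in each library's pair of sums, 39 genes (1.62%), Ccl3 itself included, were 2-fold or more lower in all 3 libraries, and 5 genes (0.208%) were 2-fold or more higher in all 3. The median log2 ratio of all genes was -0.10, 0.00 and 0.01.

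Among secreted ligands Ccl4 and Cxcl2 were both lower. Ccl4, which encodes the chemokine next to CCL3, was at 3961, 3536 and 2378 CPM without Ccl3 and at 13588, 12813 and 10274 CPM with Ccl3. Its log2 ratio was -1.78 [-1.86 to -1.70], -1.86 [-1.91 to -1.81] and -2.11 [-2.18 to -2.04]. Ccl4 was still found in 56, 203 and 131 of the 93, 335 and 216 cells. Cxcl2, which encodes a ligand of CXCR2, fell from 34886, 49409.9 and 35080.1 CPM with Ccl3 to 16265, 23624 and 17038 CPM without it, with log2 ratios of -1.10, -1.06 and -1.04. After thinning each cell to 1000 UMIs it was found in 97.8, 98.2 and 97.7% of the neutrophils without Ccl3. In fibroblast-like wound cells, taken as a background of free RNA, the shares were 52.7, 65.4 and 57.2%. Whether these cells made Cxcl2 themselves was not tested. Unthinned, the shares were 100, 99.7 and 99.5% and 83.4, 93.6 and 91.6%. The median depths were 3411, 2637 and 3208 UMIs in the neutrophils and 28330, 26176 and 26755 in the fibroblast-like cells. Tnf was at 204, 239 and 392 CPM against 1185, 1967 and 1303 CPM, with log2 ratios of -2.54 [-2.90 to -2.19], -3.04 [-3.23 to -2.86] and -1.73 [-1.90 to -1.56]. Il1a, the gene of the membrane-bound form of interleukin 1, differed by -2.40, -2.95 and -2.66 on the log2 scale. The gene of its secreted relative, Il1b, was at 5564, 8295 and 6670.4 CPM without and 7054, 8543 and 6613 CPM with Ccl3, and the log2 ratios of -0.34, -0.04 and 0.01 were far smaller than those of its neighbours in this group. Of the 20 inflammatory ligands listed, 17 had enough UMIs in all libraries, 14 of these were below 0 in every library, against 768 of the 2408 genes (31.9%), and 8 were 2-fold or more lower in every library, against 1.62%. The median over the 17 was -1.29, -1.06 and -1.0.

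Of 13 regulators that NF-kappaB itself induces, 1 was 2-fold or more lower in all 3 libraries, against 1.62% of all genes. In 12 of them the log2 ratio was below 0 in every library, against 31.9% of all genes, with medians of -0.81, -0.77 and -0.72. The gene past 2-fold was Tnfaip3, which encodes the ubiquitin-editing inhibitor A20, with -1.60, -1.52 and -1.04. Nfkbia, the gene of the inhibitor that holds NF-kappaB in the cytoplasm, was at 2186, 2274 and 2819.8 CPM against 4123, 4897 and 4695 CPM and passed 2-fold in the Ndrg2-KO DC library alone, with log2 ratios of -0.92, -1.11 and -0.74. Beyond these lists Icam1 differed by -2.02, -1.58 and -1.70 and Ccrl2, which encodes a chemerin-binding receptor, by -1.49, -1.90 and -1.38. Hcar2, the gene of the receptor for hydroxybutyrate, was the 1 neutrophil marker among 17 outside the rule to be 2-fold or more lower in all 3, with -1.53, -1.03 and -1.07. Inhba, the gene of the activin A subunit, was at 5.84, 26.7 and 9.31 CPM without and 80.4, 297 and 58.8 CPM with Ccl3. The inflammasome list had medians of -0.65, -0.63 and -0.71 over 7 genes, 0 of them 2-fold or more lower in all libraries.

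Some of the 39 genes are transcripts of wound stroma rather than of neutrophils. Dcn and Col1a2, markers of fibroblasts, had log2 ratios of -1.68, -3.19 and -1.70 and of -1.62, -2.20 and -1.05. In the control DC library Dcn was at 37.9 CPM without Ccl3. Fibroblast markers as a sum were at 388, 351 and 322 CPM in neutrophils without Ccl3 and 1438, 1559 and 652 CPM in those with Ccl3. Cells that held RNA of macrophages, class II genes or globin were 4.30%, 14.3% and 14.4% of the neutrophils without Ccl3 and 11.8%, 16.5% and 22.3% of those with Ccl3. The part of this RNA in the differences was not tested gene by gene, but without the marked cells in either class 29 genes were lower and 3 higher in all 3 libraries.

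Fewer transcripts were higher without Ccl3. Of the 20 listed chemoattractant and danger receptors 0 were 2-fold or more higher in all 3 libraries and 1 was lower, against 0.208% and 1.62% of all genes. Cxcr2, which chose the cells and is therefore given as a value only, was at 1226, 783 and 971 CPM against 699, 365 and 507 CPM. Lrg1, which encodes a secreted glycoprotein of neutrophil granules, differed by 0.92, 1.10 and 0.78. Cxcr4, the receptor gene that rises in ageing neutrophils, differed little, by 0.13, 0.15 and 0.23. The 5 genes past 2-fold in all 3 libraries were Arrdc3, Nlrp12, Dusp6, Gm26740 and A530064D06Rik. Dusp6, the gene of a phosphatase that switches off ERK kinases, was at 201, 104 and 197 CPM against 96.9, 37.9 and 73.7 CPM. Nlrp12, the gene of an NLR protein known as a brake on NF-kappaB signalling, was at 61.3, 47.4 and 49.2 CPM against 23.7, 12.9 and 21.6 CPM. Arrdc3, the gene of an arrestin-like adaptor, differed by 1.51, 1.32 and 1.59.

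**Figure D2:**
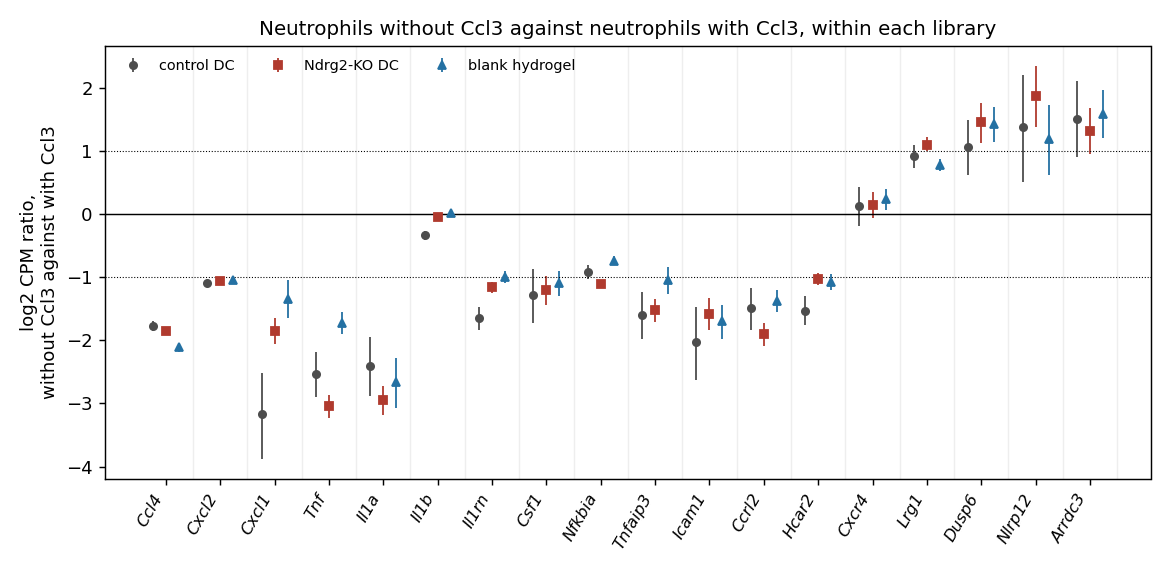
Log2 ratio of CPM in neutrophils without Ccl3 to CPM in neutrophils with Ccl3, per library (marker shape and colour), with bars as exact 95% intervals of counting error; dotted lines mark 2-fold. From Ccl4 to Hcar2 the points lie below 0 apart from Il1b in the blank hydrogel library at 0.01, and from Cxcr4 to Arrdc3 they lie above 0.

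Between classes of Ccl3 counts the largest step of Ccl4 and Cxcl2 was to the top class in every library. In the Ndrg2-KO DC library, neutrophils with 0, 1, 2 to 5 and 6 or more Ccl3 UMIs numbered 335, 180, 405 and 1732, and Ccl4 was at 3536, 4035, 5944 and 14364 CPM. In the control DC library Ccl4 was at 3961, 4264, 6877 and 16321 CPM and in the blank hydrogel library at 2378, 3125, 5732 and 11996 CPM. Cxcl2 was at 16265, 17825, 17828 and 40990.3 CPM in the control DC library, at 23624, 25759, 27210.4 and 54134 CPM in the Ndrg2-KO DC library and at 17038, 16644, 20288 and 40184 CPM in the blank hydrogel library. Tnf was at 392, 294, 472 and 1587 CPM in the blank hydrogel library and Il1a at 123, 38.4, 245 and 815 CPM in the control DC library. The order of the lowest classes was thus not the same throughout, since cells without Ccl3 were above those with 1 UMI for Cxcl2, Tnf and Il1a in blank hydrogel and for Il1a in control DC.

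**Figure D3:**
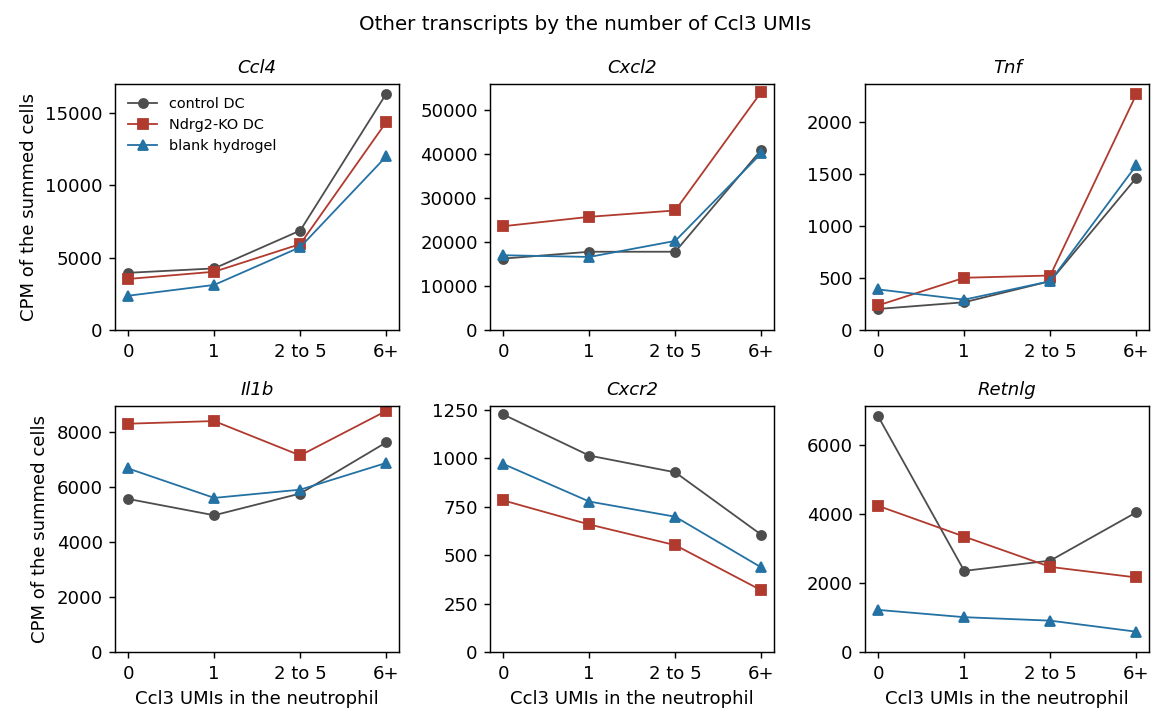
CPM of 6 transcripts in neutrophils grouped by their number of Ccl3 UMIs (0, 1, 2 to 5, 6 or more), 1 line per library, each axis starting at 0. Ccl4, Cxcl2 and Tnf are highest at 6 or more Ccl3 UMIs in all 3 libraries, Cxcr2, which took part in choosing the cells, is shown as a description, and Il1b is also highest at 6 or more Ccl3 UMIs but has no common order among the lower classes.

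A cell with few UMIs can lack Ccl3 by sampling alone, so the classes were also formed at equal depth. Each neutrophil was thinned to 1000 UMIs and sorted by its Ccl3 in that draw, which left out 1, 16 and 11 cells below this depth. It gave 154, 608 and 419 cells without and 268, 2028 and 979 cells with Ccl3. The log2 ratios were then -1.87, -1.89 and -1.92 for Ccl4, -1.23, -1.20 and -1.24 for Cxcl2 and -2.57, -2.24 and -1.86 for Tnf. Those of Icam1 were -1.68, -1.21 and -1.36. For these 4 genes the directions were those of the full counts. At the same thinned depth, Ccl4 was found in 50.5, 45.9 and 47.7% of the neutrophils without Ccl3 in the full counts, in 81.8, 80.7 and 78.7% of those with Ccl3 and in 2.80, 5.85 and 4.07% of fibroblast-like wound cells, the same background as above. Thinning left out 0, 8 and 2 of the neutrophils without Ccl3, and the unthinned shares in them were 60.2, 60.6 and 60.6%. In fibroblast-like cells, which were deeper, the unthinned shares were 15.4% in control DC and 38.3% in Ndrg2-KO DC.

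The libraries were then compared with each other within the neutrophils without Ccl3, where the genes below took no part in the rule except Retnlg, which is given as values only. Against control DC wounds, the cells of Ndrg2-KO DC wounds were 2-fold or more higher in 256 of 2105 genes with at least 50 UMIs (12.2%) and 2-fold or more lower in 35 (1.66%), with a median log2 ratio of 0.16. Against blank hydrogel wounds they were higher in 76 of 2613 genes (2.91%) and lower in 89 (3.41%), with a median of -0.09. The cells of blank hydrogel wounds were higher than those of control DC wounds in 218 of 1898 genes (11.5%) and lower in 23 (1.21%), with a median of 0.23. The first and the last of these comparisons share the control DC library, so they are given side by side and no overlap between them is read. With median-ratio scaling these medians became 0.02, 0.05 and -0.05, and the genes split into 208 higher and 58 lower, 101 higher and 56 lower, and 136 higher and 59 lower in the same order of comparisons. Without the cells that held RNA of other types, 134 genes were higher and 29 lower against control DC, 57 and 63 between Ndrg2-KO DC and blank hydrogel, and 91 and 17 between blank hydrogel and control DC. The control DC sum was the smallest, and 173 of the 256 genes and 142 of the 218 would not have reached 50 UMIs at their control DC level. For these genes the direction, though not the size, was thus fixed by the minimum itself. Of 1809 and 1616 genes that would have reached it at that level, a criterion added after the values were seen, 83 and 76 were higher and 35 and 23 lower. More genes were thus higher than lower against control DC in both other libraries, whereas between Ndrg2-KO DC and blank hydrogel the larger number was on the lower side at 76 and 89 and on the higher side with median-ratio scaling at 101 and 56.

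A part of the interferon-stimulated genes compared was 2-fold or more lower in control DC than in both other libraries. Type I and type II interferons induce genes of antiviral defence in most cells, neutrophils included. Of 25 such genes, 16 had enough UMIs between Ndrg2-KO DC and control DC, and 10 of the 16 were 2-fold or more higher in Ndrg2-KO DC and none lower, against 12.2% and 1.66% of all genes. Their median was 1.49. Between blank hydrogel and control DC, 8 of 13 were higher and none lower, with a median of 1.42, against 11.5% of all genes. Between Ndrg2-KO DC and blank hydrogel, 1 of 16 was higher, Ifit1, and none lower, with a median of 0.00, against 2.91%. Ifit1 reached 50 UMIs only through the Ndrg2-KO DC library, and 0 of 15 genes that would have reached it at the blank hydrogel level were higher. Of the 10 genes 7, and of the 8 genes 4, would not have reached 50 UMIs at their control DC level, so these counts and medians are descriptions. Among the 9 genes that would have reached it in either comparison, 3 were higher in Ndrg2-KO DC and 4 in blank hydrogel, against 4.59% and 4.70% of all genes under that criterion, and none lower. Of the 25 genes 6 had no UMI in the smaller control DC sum. Against neutrophils with Ccl3 of the same library the medians of the list were -0.28, -0.06 and 0.14, so the absence of Ccl3 went with no common direction here.

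Isg15, the gene of a ubiquitin-like protein and a standard readout of interferon, was at 140.1 [103 to 186], 466 [425 to 510.1] and 374 [331 to 420.1] CPM. Its log2 ratio was 1.73 [1.30 to 2.19] for Ndrg2-KO DC against control DC and 1.42 [0.97 to 1.89] for blank hydrogel against control DC. Isg15 UMIs were found in 17, 126 and 69 of the 93, 335 and 216 cells. After thinning to 1000 UMIs, 9.68% [4.52 to 17.6], 22.9% [18.5 to 27.9] and 17.3% [12.5 to 23.0] of the cells held Isg15, and in fibroblast-like cells thinned alike the shares were 4.90, 8.69 and 7.18%. The unthinned shares were 18.3, 37.6 and 31.9% in the neutrophils without Ccl3. In fibroblast-like cells, which were deeper, they were 47.5% in control DC and 55.7% in Ndrg2-KO DC. The control DC library was low in the share of cells and in the level. In wound cells with under 1% S100a8 and S100a9, Isg15 was at 74.8, 151 and 106 CPM, also lowest in control DC, and the part of free RNA in the neutrophil values was not tested.

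Among genes of antiviral GTPases and sensors, most had few UMIs in control DC. Gbp2, the gene of a guanylate-binding protein that attacks vacuoles of pathogens, was at 52.5 [31.1 to 83.0], 292 [259.9 to 328] and 269 [233 to 308] CPM, with log2 ratios of 2.48 [1.79 to 3.25] and 2.35 [1.66 to 3.14] against control DC. Rsad2, which encodes the antiviral enzyme viperin, was at 8.76, 144 and 87.8 CPM, but its control DC level rested on 3 UMIs in 3 cells. Its ratio of Ndrg2-KO DC to control DC was 4.04 [2.47 to 6.34] on the log2 scale. Ifi47, the gene of an immunity-related GTPase, had 3, 83 and 41 UMIs, those of control DC in 1 cell. Zbp1, whose product senses unusual nucleic acids, had 2, 72 and 30 UMIs and Slfn5 had 2, 58 and 52. These control DC counts are at or under 3 UMIs, the number that a count of 0 still allows, so the sizes of these ratios are poorly known.

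Further members of the list differed to unlike degrees. Irf7, a transcription factor gene of the pathway, was at 23.4, 55.3 and 94.4 CPM. Its log2 ratios against control DC were 1.24 [0.17 to 2.52] for Ndrg2-KO DC and 2.02 [0.96 to 3.28] for blank hydrogel. At its control DC level Irf7 would not have reached the UMI minimum in either comparison. The direction of these ratios, though not their size, was thus fixed by the minimum itself, and they are descriptions. Ifitm3, which encodes a membrane protein that hinders virus entry, was at 543, 1075 and 1216 CPM. Its close relative Ifitm1 was level at 5684, 5645 and 5721 CPM, so members of the list did not all take part. Slfn1 was at 274, 212 and 287 CPM and Slfn4 at 508, 586 and 886 CPM, with ratios of -0.37 and 0.21 between Ndrg2-KO DC and control DC. Summed over all 25 genes the list was at 7695, 9591 and 9961 CPM, of which Ifitm1 held 73.9%, 58.9% and 57.4%. Without Ifitm1 the other 24 genes summed to 2011, 3946 and 4240.3 CPM.

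**Figure D4:**
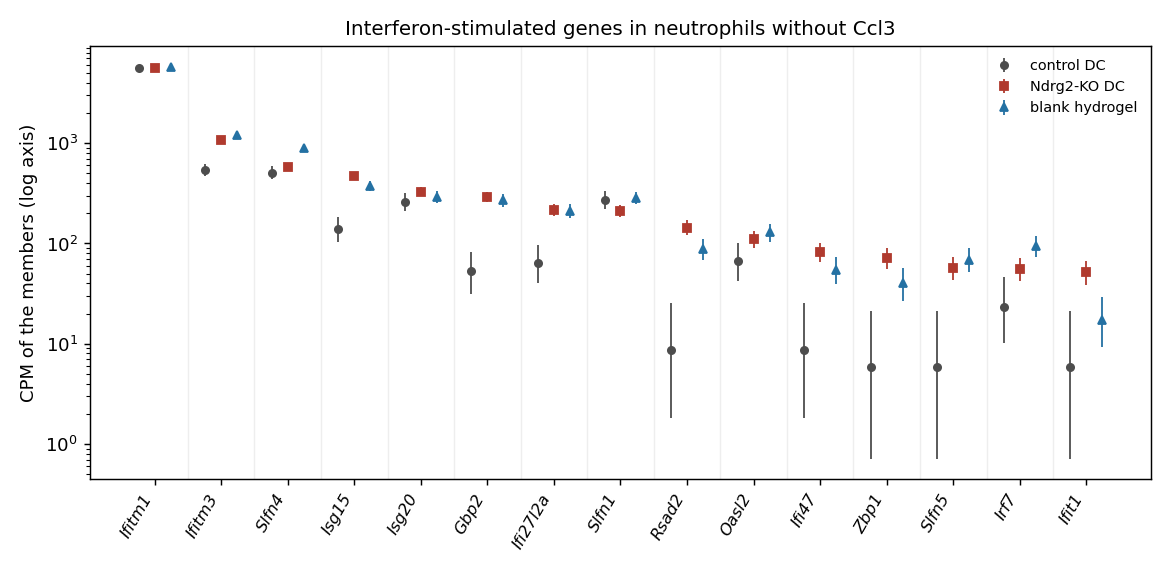
CPM (log axis) of 15 of the 16 interferon-stimulated genes with enough UMIs between Ndrg2-KO DC and control DC, in neutrophils without Ccl3 of each library, with bars as exact Poisson 95% intervals of the UMI counts. Apart from Ifitm1 and Slfn1, the control DC point lies below both others, for Isg20, Slfn4 and Oasl2 by less than 2-fold, as for Ifitm3 against Ndrg2-KO DC.

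The interferon difference was also present without the marked cells and in the neutrophils with Ccl3. Without the cells that held RNA of other types, 11 of 16 genes were higher in Ndrg2-KO DC than in control DC, against 7.61% of all genes in these cells, and 6 of 12 in blank hydrogel, against 5.70%. Of these, 7 and 3 reached 50 UMIs only through the library where they were high. Among the 9 genes that would have reached it at the control DC level, 4 and 3 were higher, against 3.45% and 2.61% of all genes under that criterion. In the neutrophils with Ccl3, which are other cells of the same libraries, 16 of 25 were higher in Ndrg2-KO DC with a median of 1.32, against 13.5% of all genes there, and 9 of 23 in blank hydrogel with a median of 0.77, against 6.46%. Isg15 was at 161, 411 and 269 CPM there. At the control DC level 22 and 20 of the genes would have reached the minimum there, of which 13 and 8 were higher, against 6.55% and 2.62% of all genes under that criterion. Among the neutrophils without Ccl3, the tenth of the cells with most UMIs of the 24 genes other than Ifitm1 held 32.9, 38.4 and 43.1% of them. Cells with UMIs of 5 or more of the 25 genes were 38.7%, 49.6% and 52.3%, at unequal depth. After thinning, cells with 3 or more were 36.6, 54.7 and 55.6%, against 21.9, 43.8 and 33.5% in fibroblast-like cells. Unthinned, the shares in the neutrophils without Ccl3 were 90.3, 82.7 and 86.6%. In the deeper fibroblast-like cells they were 96.8% in control DC and 97.7% in Ndrg2-KO DC.

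Promoters of 4 of these genes are printed, since interferons are known to act on them through a short element. This interferon-stimulated response element is bound by complexes with IRF factors, and its core was searched as GAAA, any 2 bases and GAAA on both strands in the 250 bases before each start site in RefSeq (GRCm38.p6). Of the 25 genes 21 had a promoter in the table, and 10 of the 21 (47.6%) held a match, compared with 936 of 27025 promoters of all genes (3.46%). The motif was in 2 of 16 promoters of inflammatory ligands (12.5%) and in none of 10 of the NF-kappaB feedback genes, 16 of the neutrophil markers and 8 of the secondary granule genes. A match describes letters and not a site shown to be bound. The stretches below run 5′ to 3′ on the strand of the gene, and capitals mark the matches, on either strand.
Isg15, chr4:156200845-156200964, - strand: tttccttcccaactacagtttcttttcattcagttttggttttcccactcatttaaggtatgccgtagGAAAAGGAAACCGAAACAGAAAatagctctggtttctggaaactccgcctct
Rsad2, chr12:26456533-26456652, - strand: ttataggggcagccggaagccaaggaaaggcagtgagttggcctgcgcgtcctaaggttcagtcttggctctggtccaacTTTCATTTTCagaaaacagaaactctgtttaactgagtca
Gbp2, chr3:142620524-142620643, + strand: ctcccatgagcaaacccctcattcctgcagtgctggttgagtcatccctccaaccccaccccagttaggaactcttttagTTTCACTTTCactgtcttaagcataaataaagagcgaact
Ifit1, chr19:34640724-34640843, + strand: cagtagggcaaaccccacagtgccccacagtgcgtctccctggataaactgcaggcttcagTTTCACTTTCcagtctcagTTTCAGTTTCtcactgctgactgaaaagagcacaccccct
In Isg15, 3 overlapping matches lie 78 to 57 bases before the start site. Ifit1 has 2 matches, 104 to 76 bases before its start, Gbp2 has 1 at 59 to 50 bases, and Rsad2 has 1 at 120 to 111 bases. Ifit1, the gene of an RNA-binding antiviral protein, had 2, 52 and 13 UMIs in the 3 libraries. These UMIs lay in 2, 14 and 8 cells.

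Single granule genes were highest in control DC, whereas the order of the secondary granule list depended on the cells with RNA of other types. Its 9 genes summed to 3217, 3005 and 3538 CPM with all cells and to 3145, 2741 and 2840.1 CPM without those cells, so that blank hydrogel was highest in the first case and control DC in the second. Between Ndrg2-KO DC and control DC 1 of 5 with enough UMIs was 2-fold or more higher and 1 lower, with a median of -0.14, against 12.2% and 1.66% of all genes. Between blank hydrogel and control DC 2 of 5 were higher and 0 lower, with a median of 0.50, against 11.5% and 1.21%. Without the marked cells 0 of 4 passed 2-fold in either comparison, and the medians were 0.01 and -0.13. Mmp8, the gene of neutrophil collagenase, was at 309 [253 to 374], 103 [83.9 to 124] and 90.4 [70.2 to 115] CPM, so both other libraries were lower than control DC, with log2 ratios of -1.59 [-2.0 to -1.19] and -1.77 [-2.24 to -1.32]. Lcn2, which encodes the iron-binding lipocalin of secondary granules, was at 1635, 790.0 and 918 CPM, with -1.05 [-1.21 to -0.89] for Ndrg2-KO DC and -0.83 [-1.0 to -0.67] for blank hydrogel. With equal weight for each cell the first of these was -0.91. In the neutrophils with Ccl3 the Lcn2 ratios were -0.47 and -0.03. Retnlg, a marker of neutrophils fresh from the blood that took part in choosing the cells, was at 6837 [6562 to 7119], 4244 [4118 to 4373] and 1228 [1149.7 to 1309] CPM without Ccl3 and at 3659.6, 2265 and 681 CPM with Ccl3. Wfdc21, the gene of a small secreted protein with a protease-inhibitor fold, was at 2230.2, 1187 and 887 CPM. Cebpd, a transcription factor gene of late granulocyte maturation, was at 455, 216 and 247 CPM, with a log2 ratio of -1.07 for Ndrg2-KO DC against control DC that was -0.96 with equal weight for each cell, and 25.6% of its control DC UMIs were in 1 cell.

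Among the 35 of 2105 genes (1.66%) that were 2-fold or more lower in Ndrg2-KO DC than in control DC were 4 stefin genes. The stefin genes compared in all were not counted, so nothing is read for the family. Stefin genes encode cysteine protease inhibitors and lie in a cluster of near-identical copies. Gm5483 was at 10342, 4762 and 6503 CPM, with log2 ratios of -1.12 [-1.18 to -1.06] for Ndrg2-KO DC and -0.67 [-0.73 to -0.61] for blank hydrogel. Stfa1 was at 1255, 574 and 976 CPM but was found in only 13, 37 and 29 cells, and BC100530 at 998, 210.3 and 678 CPM in 16, 23 and 15 cells. Between Ndrg2-KO DC and control DC the log2 ratio was -1.13 for Stfa1, -1.13 for Stfa2 and -2.25 for BC100530. When each cell had equal weight these were -0.79, -1.02 and -1.54, and Gm5483 was at -0.85, so Stfa1 and Gm5483 were then short of 2-fold. How reads were shared among these copies cannot be seen in the counts, so their levels are uncertain one by one. Of the 15 neutrophil markers outside the rule with enough UMIs, 2 were lower in Ndrg2-KO DC than in control DC, Mmp8 and Stfa2, and 2 of 15 in blank hydrogel, Mmp8 and Ly6g, with medians of -0.43 and -0.19, against 1.66% and 1.21% of all genes.

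Ndrg2-KO DC and blank hydrogel wounds, which were close in the interferon list, differed in other genes. Slc2a3, which encodes the glucose transporter GLUT3, was at 399.9 [336 to 473], 715 [664 to 769] and 233 [199.6 to 269.9] CPM and was 1.62 [1.38 to 1.87] higher on the log2 scale in Ndrg2-KO DC than in blank hydrogel. It was found in 14.0, 38.5 and 15.0% of the thinned cells, against 0.350, 0.355 and 0% of fibroblast-like cells thinned alike. Unthinned, the shares were 34.4, 55.5 and 26.9%, and fibroblast-like cells were at 5.08% in control DC and 7.14% in Ndrg2-KO DC. In the neutrophils with Ccl3 it was at 311, 365 and 159 CPM. The rest of the hypoxia and glycolysis list did not follow, since Slc2a3 was the 1 gene of 19 that was higher, against 2.91% of all genes, and the median of the list was 0.00. Nop53, the gene of a nucleolar ribosome assembly factor, was at 84.7, 198 and 37.2 CPM, with 2.41 [1.84 to 3.04] between Ndrg2-KO DC and blank hydrogel. Cxcl10, the gene of an interferon-induced chemokine, had a ratio of 3.85 [2.58 to 5.50], but rested on 16, 97 and 5 UMIs, of which 1 cell held 35.1% in Ndrg2-KO DC.

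Single genes of different kinds were lower in Ndrg2-KO DC than in blank hydrogel. Lrg1 was at 1013 [909 to 1125], 752 [700.0 to 808] and 1546 [1458 to 1637] CPM, with -1.04 [-1.17 to -0.91], and was found in 47.3, 45.3 and 67.8% of thinned cells, unthinned 78.5, 69.6 and 86.1%, against 0.525, 0.887 and 1.20% of fibroblast-like cells. Cxcr4, the receptor gene for the marrow chemokine CXCL12, was at 321, 210.3 and 458 CPM, with -1.12 [-1.37 to -0.87], and the ratio in neutrophils with Ccl3 was -1.04. Igsf6, a myeloid receptor gene, was at 359, 186 and 423 CPM and Osgin1, a target of the oxidative stress factor NRF2, at 149, 82.0 and 250.1 CPM. Osgin1 was the 1 antioxidant gene of 11 that was 2-fold lower, against 3.41% of all genes, with -1.61 [-2.0 to -1.23]. Dusp2, which encodes a phosphatase of MAP kinases, was at 29.2, 40.5 and 156 CPM, with -1.94 [-2.49 to -1.42], and was high in blank hydrogel also against control DC. Mrpl52, the gene of a protein of the mitochondrial ribosome, was at 163, 114 and 359 CPM, with -1.66 [-1.99 to -1.34].

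**Figure D5:**
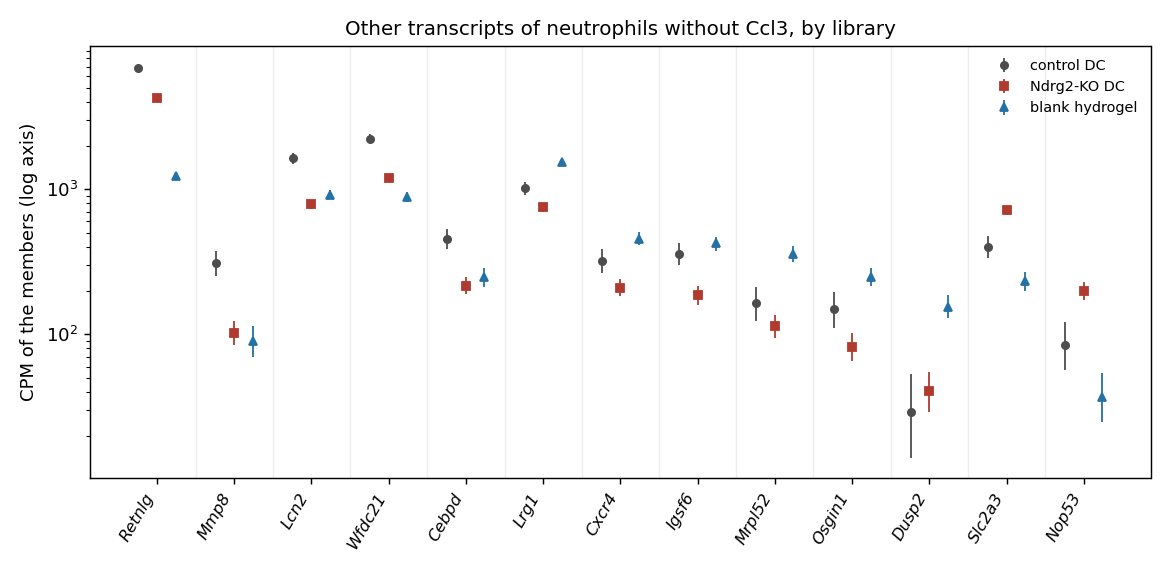
CPM (log axis) of 13 further transcripts in neutrophils without Ccl3 of each library, with bars as exact Poisson 95% intervals. Retnlg took part in choosing the cells and is shown as a description. From Retnlg to Cebpd the control DC library is highest, from Lrg1 to Dusp2 the blank hydrogel library is highest, and for Slc2a3 and Nop53 the Ndrg2-KO DC library is highest.

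Of 15 inflammatory ligands with enough UMIs, 3 were 2-fold or more higher in Ndrg2-KO DC than in control DC, against 12.2% of all genes, namely Cxcl1, Cxcl10 and Vegfa. Without the cells that held RNA of other types it was 1 of 14, against 7.61%, and the log2 ratio of Cxcl1 was 0.97 in place of 1.79. Against blank hydrogel 2 of 15 were higher, Cxcl10 and Il1a, against 2.91%. Between blank hydrogel and control DC 3 of 13 were higher, Cxcl1, Csf1 and Vegfa, against 11.5%. Without the cells that held RNA of other types 3 of 12 were higher there, against 5.70%. With all cells, 1 of the genes called in each of the 3 comparisons reached 50 UMIs only through the library where it was high. Csf1 was at 0.77 with equal weight for each cell. Cxcl1 and Vegfa were low in counts, with 20, 204 and 99 and 7, 75 and 49 UMIs, and the ratio of Cxcl1 between blank hydrogel and control DC was 1.17 [0.47 to 1.95] but -0.46 when cells without Ccl3 were chosen after thinning to 1000 UMIs. Vegfa, the gene of the vascular growth factor, had a ratio of 1.86 [0.74 to 3.22] for Ndrg2-KO DC against control DC and of 1.67 [0.52 to 3.06] for blank hydrogel against control DC, the latter -0.25 after the thinned choice. Cxcl2 was at 16265 [15841 to 16698], 23624 [23325 to 23925] and 17038 [16745 to 17336] CPM, with log2 ratios of 0.54 [0.50 to 0.58] and 0.47 [0.44 to 0.50] for Ndrg2-KO DC against control DC and blank hydrogel. The same ratios in neutrophils with Ccl3 were 0.50 and 0.49. Cxcl2 was thus highest in Ndrg2-KO DC in either class of cells, by less than 2-fold. Ccl4 was lowest in blank hydrogel, with -0.74 [-0.84 to -0.63] against control DC. Il1b was at 5564, 8295 and 6670.4 CPM, with 0.58 [0.50 to 0.65] and 0.31 [0.26 to 0.37] for Ndrg2-KO DC. Tnf was highest in blank hydrogel and Il1a lowest there, at 123, 164 and 74.5 CPM. None of the 13 NF-kappaB feedback genes passed 2-fold in any of the 3 comparisons, where 1.21% to 12.2% of all genes did in a given direction. Without the cells that held RNA of other types 1 of 13 was higher in Ndrg2-KO DC than in control DC, against 7.61%, and 1 of 12 in blank hydrogel, against 5.70%.

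Receptors, immediate early genes and survival genes were counted in the same way. Of 20 chemoattractant and danger receptors 1 was lower in Ndrg2-KO DC than in control DC and than in blank hydrogel, namely Il17ra, the gene of the interleukin 17 receptor, at 128, 58.3 and 126 CPM, against 1.66% and 3.41% of all genes. Without the cells that held RNA of other types its log2 ratios were -1.02 and -0.89, the latter short of 2-fold. Of 16 immediate early and heat shock genes 3 were higher in Ndrg2-KO DC than in control DC (Fos, Fosb and Hsp90ab1) and 5 of 16 in blank hydrogel (Fos, Atf3, Dusp2, Hsp90aa1 and Hsp90ab1), against 12.2% and 11.5% of all genes. Of these, 1 of the 3 and 2 of the 5 reached 50 UMIs only through the library where they were high. With equal weight for each cell Fosb was at 0.79 in the first comparison, and Fos, Atf3 and Hsp90aa1 were at 0.90, 0.97 and 0.98 in the second, short of 2-fold. Fos was at 172, 357 and 366 CPM, with ratios of 1.05 [0.65 to 1.48] and 1.09 [0.68 to 1.52], whereas in neutrophils with Ccl3 it was at 279, 298 and 276 CPM. The immediate early genes are known to rise during tissue digestion, and the part of digestion here was not tested. Of 9 survival and apoptosis genes none was past 2-fold between Ndrg2-KO DC and control DC, against 12.2% higher and 1.66% lower of all genes. Their median was -0.09. Between Ndrg2-KO DC and blank hydrogel 1 of 10 was lower, against 3.41%, and 0 of 9 without the cells that held RNA of other types. Between blank hydrogel and control DC 1 of 9 was higher, against 11.5%, and it reached 50 UMIs only through blank hydrogel. Fth1, the gene of the ferritin heavy chain, was at 33444 [32835 to 34062], 37255 [36879.7 to 37633] and 45235 [44755 to 45718] CPM, highest in blank hydrogel, by less than 2-fold.

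Macrophage transcripts were higher in Ndrg2-KO DC than in control DC for 7 of 8 markers with enough UMIs, against 12.2% of all genes, and 6 of the 7 would not have reached 50 UMIs at their control DC level. The marked cells were chosen in part by these transcripts, so a lower level without them follows from the marking. Apoe was at 75.9, 695 and 674 CPM, with a log2 ratio of 3.20 [2.63 to 3.82] for Ndrg2-KO DC against control DC that was 1.53 without the marked cells, and 1 cell held 46.7% of its Ndrg2-KO DC UMIs. Arg1, the gene of arginase 1, was at 5.84, 227 and 14.6 CPM in 2, 9 and 9 cells, and its ratio was 5.28 [3.41 to 8.34] with and 0.32 without the marked cells. The 4 class II genes with enough UMIs were all higher in blank hydrogel than in control DC, against 11.5% of all genes, 3 of them only through the blank hydrogel sum, and of 1101 UMIs of 4 class II genes in blank hydrogel 915 were in 1 cell. Globin UMIs numbered 4159, 25265 and 5187, of which 4097, 24818 and 4990 lay in the 1, 6 and 1 cells with at least 5% globin.

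Clustering of the 644 cells gave 6 clusters, described by number and leading genes since these genes made them. Cluster 0 with 282 cells was led by Retnlg, at 6559 against 1369 CPM in the other cells, and by Mmp8. Cluster 1 with 187 cells had weak leaders such as Igfbp6 at 219.6 against 107 CPM. Cluster 2 with 102 cells was led by interferon-stimulated genes, with Ifi47 at 350.4 against 10.6 CPM, Gbp2 at 1142 against 91.2 CPM and Irf1, a gene of the list's transcription factors, at 727 against 96.7 CPM. Cluster 3 with 40 cells was led by macrophage genes such as C1qa, at 869 against 13.4 CPM, and 14 of its cells were among those with RNA of other types. Cluster 4 with 25 cells was led by Tnfrsf23 and Ldha, and cluster 5 with 8 cells by globin genes. Cells of all 3 libraries were in every cluster but in unequal shares, which are not compared because the genes that made the clusters, such as Retnlg and the interferon-stimulated genes, themselves differed between libraries. With a resolution of 1.0 in place of 0.5 there were 8 clusters, and with 30 principal components in place of 15 there were 5.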

How the data were processed

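Wound tissue was profiled with 10x Single Cell 3' v3 chemistry. The authors deposited filtered matrices of UMI counts per gene and barcode, written by Cell Ranger 6.0.0 per the file headers. The submitters' processing notes name Cell Ranger, Seurat 3.1.1 and mm9, whereas the methods name mm10. Coordinates are therefore printed only for promoters, from RefSeq on GRCm38.p6, and none for the counted features. The 3 other libraries of the series, cultured cells, were not used.

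Counts of the 644 cells were summed per library and scaled to CPM. Wounds were compared on log2 ratios of CPM for genes with at least 50 UMIs in both sums together, and 2-fold was the threshold. With 1 library per condition there was no test, and the labels do not say whether animals were pooled. Levels carry exact Poisson, shares exact Clopper-Pearson and ratios exact conditional binomial 95% intervals. A count of 0 was taken to allow up to 3 UMIs. Shares of cells with a UMI were thinned to 1000 UMIs per cell. Fibroblast-like cells, with UMIs of at least 4 fibroblast markers and under 1% S100a8 and S100a9, gave the background. They were deeper, so thinning removed a larger part of their RNA. Whether they made the transcripts themselves was not tested. The procedure was tested on simulated counts that varied by counting error only, so that test did not cover the spread between cells. Doublets were scored with Scrublet in scanpy 1.11.5, clusters made with Seurat 5.3.0 in R 4.3.3, and other steps run in Python 3.11.15 with numpy 2.4.6, scipy 1.17.1 and pandas 2.3.3. The alternatives concerned cell filters, the thresholds of the rule, doublets, scaling, the weight of a cell, the UMI minimum, clustering and thinning depth. Named genes were members of the gene lists, the 20 genes with most UMIs, the 8 largest rises and 8 largest falls past 2-fold per comparison of wounds where a library held at least 200 UMIs of the gene, the 10 largest in each direction against neutrophils with Ccl3 among genes called in all 3 libraries, and 6 leading genes per cluster with at least 100 UMIs in it. The members and the gene lists were chosen with earlier results of these data known. Some genes of the lists entered the counts but are not reported here by name.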

Additional observations from a re-analysis of the deposited data

Results flagged for a closer look

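Hbb-bt, a beta-globin gene of red blood cells, stood out because its difference between neutrophils without and with Ccl3 pointed in opposite directions in 2 libraries. Its log2 ratio was 1.10 in the control DC library and -1.10 in the blank hydrogel library. In the neutrophils without Ccl3, 1 cell held 99.8% of the Hbb-bt UMIs of the control DC library and 1 cell 96.0% of those of the blank hydrogel library. The difference between the libraries was not tested.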

How the results depend on the processing

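No paired analysis was possible because each condition is 1 library. For the share of kept cells, the control DC, Ndrg2-KO DC and blank hydrogel libraries gave 8.01%, 10.9% and 12.6% when Ccl3 was scored after thinning to 1000 UMIs, and 21.7%, 46.7% and 41.4% for all neutrophils with or without Ccl3. With at least 300 UMIs in place of 300 genes the control DC and Ndrg2-KO DC shares were 3.62% and 4.67%, and without cells with RNA of other types, an alternative added after the data were seen, the Ndrg2-KO DC and blank hydrogel shares were 5.05% and 5.44%.

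Counts of genes 2-fold or more higher or lower moved as follows. For Ndrg2-KO DC against control DC there were 877 and 89 after thinned scoring of Ccl3, 1148 and 115 with or without Ccl3, 108 and 16 at a minimum of 100 UMIs, and 5138 and 1235 with no minimum. There were 58 lower with median-ratio scaling, 134 higher without cells with RNA of other types, and 95 higher with sums drawn down to the smallest total, also added later. For Ndrg2-KO DC against blank hydrogel there were 239 higher after thinned scoring, 453 and 146 with or without Ccl3, 38 and 33 at 100 UMIs, 2654 and 2565 with no minimum, 37 and 45 with sums drawn down, and 56 lower with median-ratio scaling. For blank hydrogel against control DC there were 412 and 54 after thinned scoring, 431 and 85 with or without Ccl3, 89 and 7 at 100 UMIs, 4727 and 1323 with no minimum, 136 and 59 with median-ratio scaling, and 99 and 15 with sums drawn down. In that comparison 127 were higher without the highest 6% of doublet scores, 91 without cells with RNA of other types and 144 with the mean of per-cell CPM. Against neutrophils with Ccl3, 2 genes were higher and 23 lower after thinned scoring, 40 and 1358 with no minimum, and 3 higher without cells with RNA of other types. Among genes that would hold 50 UMIs at the level of the second library named, also added later, 83, 39 and 76 were higher in the 3 comparisons of wounds. Many alternatives also changed how many genes could be counted. For Ndrg2-KO DC against control DC these were 2105 as reported, 4218 after thinned scoring, 7300 with or without Ccl3, 1760 without cells with RNA of other types, 1300 at 100 UMIs, 11024 with no minimum, 1289 with sums drawn down and 1809 at the level of the second library. The cause of the shifts beyond this was not tested.

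Single genes that turned were Arg1 between Ndrg2-KO DC and blank hydrogel, at -0.59 on the log2 scale without cells with RNA of other types, and 5 genes between blank hydrogel and control DC. With or without Ccl3 these were Cxcl1 at -0.48, Apoe at -0.46, C1qa at -0.52 and Hbb-bt at 0.11. After thinned scoring Cxcl1 was at -0.46 and Vegfa at -0.25. Hbb-bt was at 7.02 without the highest doublet scores and at 1.43 without cells with RNA of other types. Over all alternatives, 783 of 792 values of 66 ratios of named genes kept their sign and 9 did not. Of the 783, 102 were shifted beyond counting error. The 66 ratios were only those already past 2-fold as reported, so the kept signs are no support for them.

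The control DC cells set the limit of depth. Their 342569 UMIs in 93 cells leave levels under 8.76 CPM indistinct from absence, and genes with under 50 UMIs in a pair of sums were not compared. The intervals hold counting error alone, and the spread between animals is unknown.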
